A study of Oryza sativa with 6 samples.

Results

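Mesocotyls of 5-day-old dark-grown rice seedlings were compared after 24 h of light and after 30 min of light, that is, in a lasting and in an early state of light exposure. The compared loci were those with at least 1 FPKM in either of these libraries, 19746 of the 35500 loci in the deposited table. FPKM is a fragment count scaled to transcript length and library size. The locus just inside this limit had 1.00002 FPKM in its higher library and the one just outside had 0.999883 FPKM. The difference of a locus was computed as log2((FPKM after 24 h + 1)/(FPKM after 30 min + 1)), so that a positive value means a higher level after 24 h.

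The plants were the indica rice cultivar P25, and poly(A) RNA was taken from the mesocotyl. Each condition was 1 RNA pool sequenced as 1 library. The 24 h and the 30 min seedlings shared the 5 days of darkness that came before the light, and no genotype or chemical treatment separated them. The 24 h seedlings were also older at harvest by nearly the length of that exposure, so age and length of light cannot be told apart in this pair. The other 4 libraries came from seedlings kept 1, 3 or 5 days in darkness and from 5-day dark-grown seedlings given 60 min of light, and their values are set beside the pair. With 1 library per condition there was no replicate check, no p-value was computed, and "higher" and "lower" describe these libraries at a difference of 2-fold or more on the scale above.

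The mesocotyl is the stem-like internode between the seed and the coleoptile node, and it lengthens in darkness and stops lengthening in light. Light acts through phytochromes and cryptochromes, which switch seedlings to leaf and chloroplast development. Jasmonate, a hormone made from linolenic acid, is sensed when JAZ proteins, repressors of the TIFY family, are degraded. Genes for JAZ proteins are themselves among the first that jasmonate or wounding switches on, and WRKY factors are known regulators of defence and wound responses. LEA proteins and dehydrins are hydrophilic proteins that protect cells during water loss, in maturing seeds and under abscisic acid.

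After 24 h of light, 7 of 11 measured LEA and dehydrin loci were higher than after 30 min, and 7 of 11 JAZ repressors were lower. Of 15 jasmonate synthesis loci 6 were lower and 8 lay within 2-fold, and of 46 WRKY loci 13 were lower and 32 lay within 2-fold. Of 5 antenna loci 4 were higher after 24 h, at a few FPKM. Lipid-transfer proteins were found on both sides. Over all loci, 1481 (7.50%) were higher after 24 h and 1816 (9.20%) were lower, 16.7% in either direction. Counts for gene lists and deposited terms here and below are to be read beside these shares. The median difference was -0.02, and the 5th and 95th percentiles were -1.28 and 1.20. A difference of 4-fold or more was found for 319 higher and 324 lower loci, and one of 8-fold or more for 124 higher and 114 lower loci. Of the 15 possible pairs of libraries this one had the lowest share of loci at 2-fold or more, and the other 14 pairs had 21.9% to 41.3%. This rank describes the chosen pair and is no separate result. Between the 30 min library and that of 3 days of darkness the share was 21.9%. Against the 60 min library the share was 31.1% for 30 min and 29.8% for 24 h. The cause of this order was not tested. In bulk tissue, fewer cells of a type and less RNA per cell cannot be told apart.

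**Figure D1:**
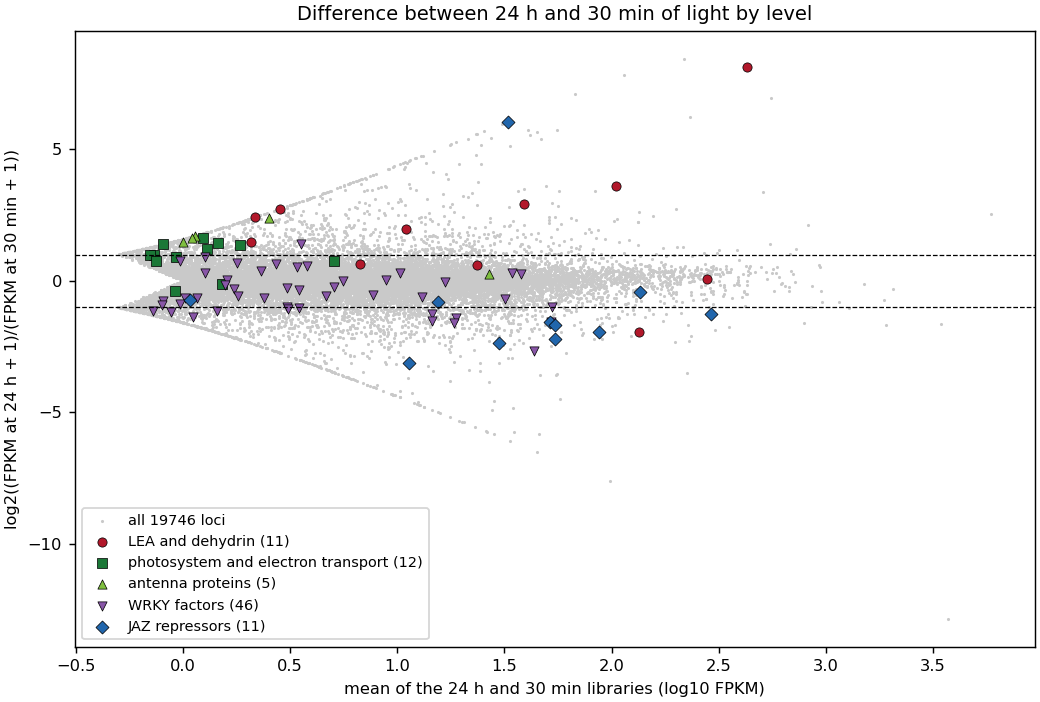
Difference between 24 h and 30 min of light (log2 scale, vertical axis) against the mean FPKM of both libraries (log10 scale, horizontal axis), 1 point per locus. Dashed lines mark 2-fold. Dehydrin Rab16D lies at 8.13, and 7 of 11 JAZ repressors lie below the lower line. The curved edges of the cloud are loci listed at or near 0 in one of the libraries.

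Low loci held many of these differences. Of loci with a mean under 2 FPKM, 13.2% were higher and 15.8% lower. Between 20 and 100 FPKM the shares were 5.13% and 7.18%. The FPKM sums were 351654 after 24 h and 357539 after 30 min, within the range of 336212 to 359808 over the 6 libraries. Read depth could not be recovered from the FPKM values, so no counting interval is given.

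A locus was described as standing apart in a library when it was at least 2-fold above or below each of the other 5 libraries. In the 24 h library 493 loci (2.50%) stood apart high, which was 33.3% of the loci higher than after 30 min, and 132 loci (0.668%) stood apart low. In the 30 min library 463 loci (2.34%) stood apart high, which was 25.5% of the loci lower after 24 h, and 94 loci (0.476%) stood apart low. Most differences, 894 of the higher and 1224 of the lower loci, belonged to loci that stood apart in neither library.

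Of the LEA and dehydrin list, 11 of 15 loci were measured. After 24 h, 7 of the 11 were higher and 1 was lower, against 7.50% and 9.20% of all loci, and the list's median difference was 1.97. Summed over all 15 loci of the list, the level was 1533 FPKM after 24 h and 539 FPKM after 30 min. Dehydrin Rab16D (ZS11g0389900), of the rice RAB16 family known for its response to abscisic acid, had 0.0402, 0.882 and 3.69 FPKM after 1, 3 and 5 days of darkness and 2.06, 1.46 and 859 FPKM after 30 min, 60 min and 24 h of light. Its level stayed under 4 FPKM in every library except that of 24 h, and its difference was 8.13.

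A group 3 LEA protein, ZS05g0563700, had 195 FPKM after 24 h and 15.1 FPKM after 30 min, a difference of 3.61, and between 0.810 and 5.89 FPKM in the remaining libraries. A second group 3 locus, ZS01g0565700, had 69.6 FPKM after 24 h and 8.33 FPKM after 30 min, against 10.5 FPKM after 60 min and under 0.6 FPKM in each dark library. Dehydrin Rab16C (ZS11g0390200) had 5.66 FPKM after 24 h and was listed at 0 after 30 min. These 3 loci, Rab16D and the locus named Lea5 (ZS02g0433500, 3.54 FPKM after 24 h and 0.636 after 30 min) were the 5 list members that stood apart high in the 24 h library. Over all loci this share was 2.50%. Dehydrin 13 (ZS03g0582000), the most abundant member after 30 min, was nearly level, with 286 FPKM after 24 h and 270 FPKM after 30 min.

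The list held 1 clear exception. A Lea5-D locus, ZS01g0233800, had 54.5 FPKM after 24 h and 215 FPKM after 30 min, a difference of -1.96. It had 2.13, 2.50 and 9.25 FPKM after 1, 3 and 5 days of darkness and 92.5 FPKM after 60 min, so it stood apart high in the 30 min library. The other Lea5-D locus, ZS03g0318700, went the other way, with 18.1 FPKM after 24 h and 3.88 FPKM after 30 min. In 9 of the 11 loci the 24 h library was the highest of the 6, and all 11 were above their level after 5 days of darkness. No share over all loci was computed for either count.

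**Figure D2:**
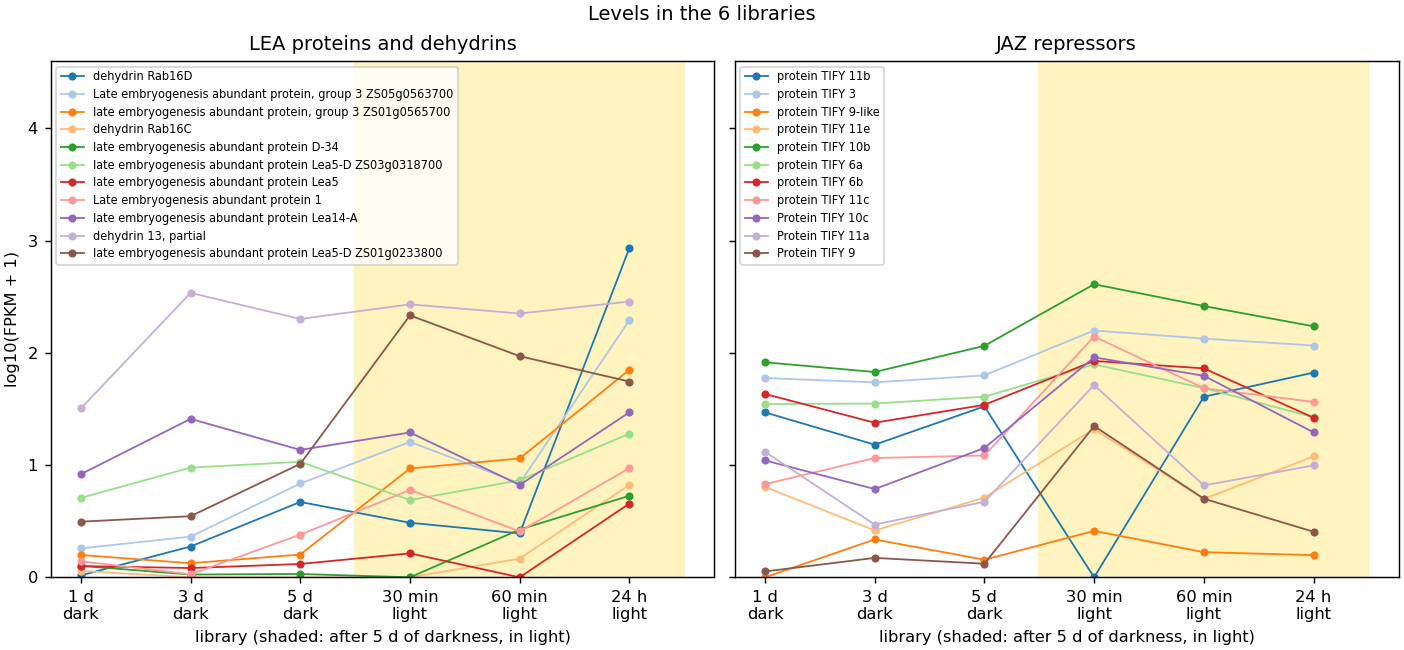
Levels of 11 LEA and dehydrin loci (left) and 11 JAZ repressor loci (right) as log10(FPKM + 1) in the 6 libraries, in order of age and light exposure, 1 line per locus; the light libraries are shaded. At 24 h of light 9 LEA and dehydrin loci have their highest value, and at 30 min of light 10 JAZ loci have theirs. Protein TIFY 11b, listed at 0 after 30 min, is the exception on the right.

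JAZ repressors showed the opposite difference. Of 12 loci 11 were measured, 7 were lower after 24 h and 1 was higher, and the median difference was -1.56. Summed over all 12 loci, the level was 480 FPKM after 24 h and 1049 FPKM after 30 min, against 315 FPKM after 5 days of darkness and 675 FPKM after 60 min. Protein TIFY 9 (ZS04g0484700) had 0.128, 0.490 and 0.322 FPKM after 1, 3 and 5 days of darkness and 21.3, 4.02 and 1.55 FPKM after 30 min, 60 min and 24 h of light. It was low in darkness, high at 30 min and lower at each later time, and its difference was -3.13.

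Protein TIFY 11a (ZS03g0077100) had 8.93 FPKM after 24 h and 50.6 FPKM after 30 min, and TIFY 10c (ZS09g0306500) had 18.6 and 90.2 FPKM at these times. TIFY 11c (ZS03g0077200) had 35.6 FPKM after 24 h and 139 FPKM after 30 min. TIFY 10b (ZS07g0522700), the most abundant member, had 171 FPKM after 24 h and 408 FPKM after 30 min, against 115 FPKM after 5 days of darkness. In 10 of the 11 loci the 30 min library was the highest of all 6, and no share over all loci was computed for this count. The exception was TIFY 11b (ZS03g0077250), with 65.7 FPKM after 24 h and a listed value of 0 after 30 min. TIFY 3 (ZS04g0778900) had 115 FPKM after 24 h and 157 FPKM after 30 min, within 2-fold. In the other 4 libraries TIFY 11b had 14.2 to 39.6 FPKM, so this 0 can be a failed estimate, and reads of close paralogs such as TIFY 11a to 11c may have been split between loci.

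Of 15 measured loci of jasmonate synthesis, 6 were lower after 24 h, 1 was higher and 8 lay within 2-fold, with a median of -0.60. Allene oxide synthase 1 (ZS03g0714600), which commits lipid hydroperoxides to the jasmonate pathway, had 10.1 FPKM after 24 h and 48.8 FPKM after 30 min. It was listed at 0 after 5 days of darkness and had 17.8 FPKM after 60 min. A locus named 12-oxophytodienoate reductase 1 (ZS06g0138600) had 17.1 FPKM after 24 h and 67.8 FPKM after 30 min, against 3.60 to 6.49 FPKM in the dark libraries. The locus named 12-oxophytodienoate reductase 7 (ZS08g0538200) had 35.1 FPKM after 24 h and 69.4 FPKM after 30 min, within 2-fold. The list was drawn by product name, and which of its members act in jasmonate synthesis was not tested. Allene oxide synthase 2 (ZS03g0115700) was the higher locus, with 2.70 FPKM after 24 h and 0.325 FPKM after 30 min. A lipoxygenase locus that merges the gene names ZS05g0260400 and ZS05g0260500 had 3.43 FPKM after 24 h and 1.82 FPKM after 30 min, within 2-fold.

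Of 120 measured loci that the authors' deposited table annotates with response to wounding, 29 (24.2%) were lower after 24 h and 8 (6.67%) were higher. Of 48 loci annotated with response to chitin, 14 were lower and 5 higher, and of 69 in the alpha-linolenic acid pathway 14 were lower and 6 higher. Of 62 loci annotated with response to jasmonic acid, 10 (16.1%) were lower and 7 (11.3%) were higher. Both shares were above those over all loci, 9.20% and 7.50%.

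WRKY transcription factors had 13 of 46 measured loci lower after 24 h and 1 higher, against 9.20% and 7.50% of all loci. The median difference was -0.58. WRKY28 (ZS06g0572300) had 4.18, 2.49 and 7.02 FPKM after 1, 3 and 5 days of darkness and 75.7, 4.92 and 10.9 FPKM after 30 min, 60 min and 24 h of light. Only the 30 min library was high, and the difference was -2.69. WRKY 29 (ZS12g0024000) had 8.55 FPKM after 24 h and 28.4 FPKM after 30 min. The highest differences were those of WRKY 24 (ZS01g0599700), with 5.62 FPKM after 24 h and 1.51 FPKM after 30 min, and of WRKY 22 (ZS01g0494800), with 1.96 and 0.572 FPKM. The 30 min library was the highest of the 6 for 23 of the 46 loci, a count for which no share over all loci was computed. In that library 6 of the 46 stood apart high, against 2.34% of all loci. With a pseudocount of 5, the count of lower WRKY loci was 5.

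Ethylene response factors, of 18 measured, had 5 loci lower and 3 higher after 24 h. ABR1 (ZS01g0719700), known in Arabidopsis as a repressor of abscisic acid responses, had 0.894 FPKM after 24 h and 8.66 FPKM after 30 min. ERF109 (ZS09g0324900) was listed at 0 after 24 h and had 3.38 FPKM after 30 min. RAP2-9 (ZS06g0076800) and ERF039 (ZS02g0541300) were listed at 0 after 30 min and had 3.02 and 2.21 FPKM after 24 h. Of 3 loci for ethylene synthesis, an ACC oxidase (ZS05g0056600), which makes the last step to ethylene, had 4.72 FPKM after 24 h and 30.8 FPKM after 30 min. The merged locus of ACC oxidase 1 (ZS09g0318800 and ZS09g0318900) had 0.322 and 9.49 FPKM at these times. ACC synthase (ZS03g0659400) had 2.25 FPKM after 24 h and 0.793 FPKM after 30 min, within 2-fold on the scale used.

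Of 5 measured antenna loci, which code for the chlorophyll-binding proteins that collect light, 4 were higher after 24 h and none was lower. Chlorophyll a-b binding protein 2 (ZS01g0462400) had 0.152, 0 and 4.66 FPKM after 1, 3 and 5 days of darkness and 0.118, 327 and 4.91 FPKM after 30 min, 60 min and 24 h of light. It was thus far higher after 60 min than at either end, and its level after 24 h was close to that after 5 days of darkness. The loci of protein 1B-21 (ZS06g0257900), of a further chlorophyll a-b binding protein (ZS03g0506800) and of CP29.1 (ZS07g0459100) had 2.29, 2.17 and 1.94 FPKM after 24 h. After 30 min they had 0, 0.0279 and 0.0618 FPKM. After 5 days of darkness they had 9.07, 4.22 and 12.9 FPKM, above their levels after 24 h. The fifth, the merged locus of protein 7 (ZS07g0476900 and ZS07g0477000), had 29.4 FPKM after 24 h and 24.4 FPKM after 30 min.

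Of 12 measured loci of photosystems and electron transport, 5 were higher after 24 h and none was lower, with a median of 0.99. Plastocyanin (ZS06g0010500), which carries electrons to photosystem I, had 2.39 FPKM after 24 h and 0.0958 FPKM after 30 min, against 42.6 FPKM after 60 min. Oxygen-evolving enhancer protein 2 (ZS07g0050800), of the water-splitting complex, had 2.60 and 0.325 FPKM after 24 h and 30 min, against 43.8 FPKM after 5 days of darkness. The lowest differences were those of photosystem I subunits XI (ZS12g0234700), with 1.43 FPKM after 24 h and 1.62 after 30 min, and VI (ZS05g0577300), with 0.658 and 1.18 FPKM. Summed over all 19 loci of the list, the level was 27.4 FPKM after 24 h, 9.01 FPKM after 30 min and 515 FPKM after 60 min. The sum after 5 days of darkness was 282 FPKM, and 3 of the 12 measured loci were above their 5-day dark level after 24 h. At a limit of 5 FPKM in place of 1, or with a pseudocount of 5, no antenna and no photosystem locus reached 2-fold.

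The early light-induced proteins, relatives of antenna proteins that protect against excess light, had 2 measured loci and both were higher after 24 h. HV58 (ZS01g0151600) had 3.84 FPKM after 24 h and 0.501 FPKM after 30 min. HV60 (ZS07g0092400) had 1.44 FPKM after 24 h and was listed at 0 after 30 min. Both were highest after 60 min, with 11.4 and 9.46 FPKM, and under 0.04 FPKM in each dark library.

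Chlorophyll synthesis had 1 of 7 measured loci higher. Protochlorophyllide reductase B (ZS10g0390600), the light-dependent step, had 1.56 FPKM after 24 h and was listed at 0 after 30 min. It had 15.8 FPKM after 5 days of darkness and 43.4 FPKM after 60 min. The ChlH subunit of magnesium chelatase (merged locus ZS03g0216600 and ZS03g0216700) had 1.50 FPKM after 24 h and 0.402 FPKM after 30 min, and the ChlI subunit (ZS03g0463800) had 0.708 and 1.22 FPKM. Chlorophyllide a oxygenase (ZS10g0458400), which makes chlorophyll b, had 5.45 FPKM after 24 h and 2.92 FPKM after 30 min, and the oxygenase-like locus ZS10g0458100 had 2.17 and 1.64 FPKM. The cyclase locus ZS01g0189000 had 1.31 FPKM after 24 h and 0.561 FPKM after 30 min. Chlorophyll synthase (ZS05g0340500) had 15.9 and 17.2 FPKM. These 6 loci lay within 2-fold.

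**Figure D3:**
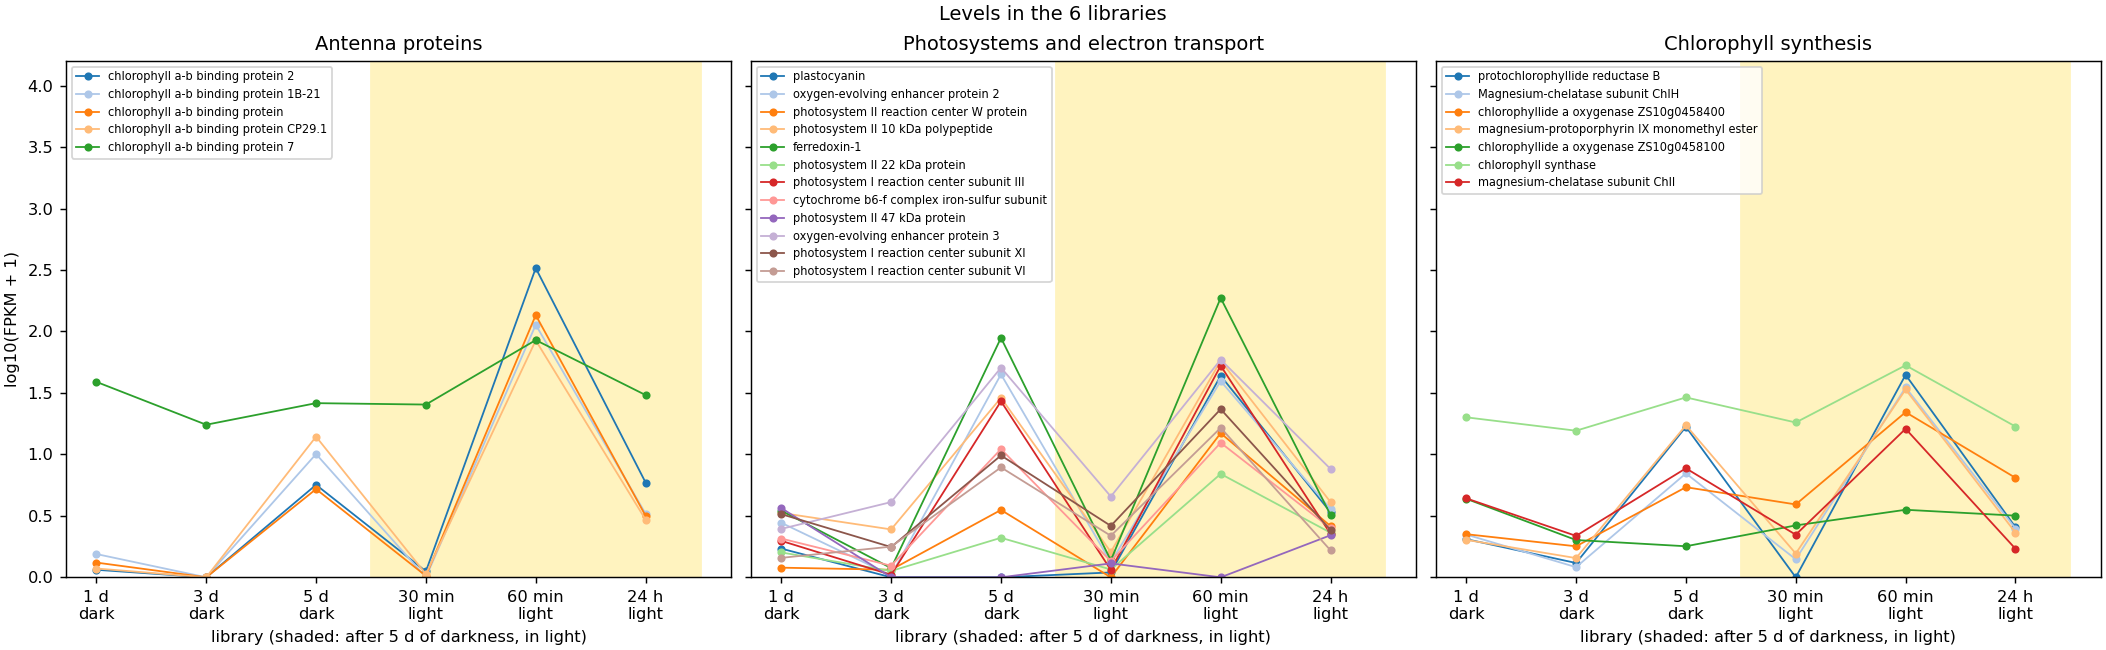
Levels of antenna (left), photosystem and electron transport (middle) and chlorophyll synthesis loci (right) as log10(FPKM + 1) in the 6 libraries, 1 line per locus; the light libraries are shaded. Most lines peak at 60 min of light, chlorophyll a-b binding protein 2 at 327 FPKM, and at 24 h most lie a little above 30 min.

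Plastid ribosomal proteins had 2 of 15 measured loci higher and none lower, with a median of 0.41. S10 (ZS03g0091800) had 5.23 FPKM after 24 h and 0.311 FPKM after 30 min, and L12 (ZS01g0531900) had 3.88 and 1.36 FPKM. The lowest differences were 0.25 for L35 (ZS06g0570500), with 1.19 and 0.835 FPKM, and 0.11 for L3-2 (ZS01g0155900), with 23.8 and 22.0 FPKM. All 15 were thus above their 30 min level. S10 and L12 had 32.9 and 19.6 FPKM after 5 days of darkness, and 59.6 and 39.0 FPKM after 60 min of light. All but L19 (ZS02g0117500) and L3-2 were below their 5-day dark level after 24 h. L19 had 8.49 FPKM after 5 days of darkness and 19.4 FPKM after 24 h, and L3-2 had 4.17 and 23.8 FPKM. Among deposited terms, 25 of 168 loci of the chloroplast thylakoid membrane (14.9%) were higher after 24 h and 7 were lower. Of 10 loci in the antenna pathway 6 were higher, and of 42 in the photosynthesis pathway 10 were higher, with none lower in either.

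Light receptors and their signalling genes differed little, with 1 of 12 measured loci lower and none higher. Phototropin-2 (ZS04g0337700), a blue-light receptor, had 6.28 FPKM after 24 h and 3.79 FPKM after 30 min, and COP1 (ZS02g0659100), a ubiquitin ligase that represses light responses, had 13.5 and 10.3 FPKM. PIF1 (ZS04g0748700), a phytochrome-interacting factor, was the lower locus, with 2.20 FPKM after 24 h and 5.63 FPKM after 30 min, against 9.96 FPKM after 5 days of darkness. SPA1-related 4 (ZS01g0583900), a COP1 partner, had 8.42 FPKM after 24 h and 12.8 FPKM after 30 min.

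Clock loci showed 2 lower members of 6. Adagio-like protein 3 (ZS11g0484900), of the family of blue-light sensing F-box proteins, had 1.03 FPKM after 24 h and 12.6 FPKM after 30 min, a difference of -2.75, and PRR73 (ZS03g0176700), a pseudo-response regulator, had 1.32 and 4.03 FPKM. GIGANTEA (ZS01g0082000) had 97.1 FPKM after 24 h and 51.7 FPKM after 30 min, within 2-fold. The remaining clock loci had 37.0 and 36.8 FPKM (adagio-like protein 1, ZS06g0628400), 15.3 and 15.9 FPKM (a putative pseudo-response regulator, ZS03g0176800) and 6.06 and 7.70 FPKM (PRR1, ZS02g0496600) after 24 h and 30 min. The labels give no clock time for either harvest, so time of day was not analysed here.

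B-box zinc finger loci, which act downstream of light receptors, had 3 of 14 lower and 1 higher. BBX22 (ZS05g0122400) had 1.18 FPKM after 24 h and 3.99 FPKM after 30 min, and a CONSTANS-like 3 locus (ZS02g0091600) had 1.33 and 4.26 FPKM. BBX25 (ZS02g0484400) had 1.52 FPKM after 24 h and 0.123 FPKM after 30 min, and BBX32-like (ZS06g0584200) had 2.29 and 1.12 FPKM.

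Among the 15 named loci with the highest differences, 12 stood apart high in the 24 h library, against 33.3% of all higher loci. The 15 were picked for a large excess after 24 h, which favours standing apart, so this count is no separate result. Non-specific lipid-transfer protein 2 (ZS05g0568900), of a family that carries lipids to the cell surface, had 0, 7.41 and 0 FPKM after 1, 3 and 5 days of darkness and 5.15, 70.8 and 457 FPKM after 30 min, 60 min and 24 h of light. The level was thus high after 60 min and highest after 24 h, and the difference was 6.22. NADP-dependent malic enzyme (ZS01g0608000), which turns malate into pyruvate, had 81.0 FPKM after 24 h and 0.535 FPKM after 30 min, and under 0.7 FPKM elsewhere. Stem bromelain (ZS09g0427100), named after a pineapple cysteine protease, had 93.0 FPKM after 24 h and 1.24 FPKM after 30 min.

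A putative calcium-binding protein (ZS10g0108600) had 82.6 FPKM after 24 h and 0.801 FPKM after 30 min, and a translocator protein homolog (ZS05g0058800) had 46.1 and 0.697 FPKM. The putative glycine-rich cell wall structural protein 1 (ZS10g0351700) had 47.9 FPKM after 24 h and 1.24 FPKM after 30 min. Outer envelope pore protein 16-2 (ZS03g0202700), a channel of the plastid envelope, had 21.7 FPKM after 24 h and 0.117 FPKM after 30 min. These 4 loci were below 3 FPKM in each of the other libraries. An early nodulin-like protein (ZS06g0617400) and a heat shock cognate 70 kDa chaperone (ZS03g0171200) had 17.1 and 17.2 FPKM after 24 h, and 0.498 and 0.519 FPKM after 30 min. A UPF0098 protein (ZS05g0478200) had 45.1 FPKM after 24 h and 2.44 FPKM after 30 min.

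The remaining highest loci had other patterns. Nucleoporin NUP50B (ZS05g0340400) had 49.0 FPKM after 24 h and 0.379 FPKM after 30 min, and 30.1 to 48.3 FPKM in the other 4 libraries. QWRF motif-containing protein 7 (ZS10g0447600) had 16.3 and 0.468 FPKM, and 4.49 to 15.5 FPKM elsewhere. For both, the 30 min library alone was low. Dirigent protein 4 (ZS10g0236100), of a family that steers phenolic coupling, had 92.3 FPKM after 24 h and 6.59 FPKM after 30 min. It also had 88.0 FPKM after 3 days of darkness and was listed at 0 after 5 days, so 24 h of light was not its only high library.

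**Figure D4:**
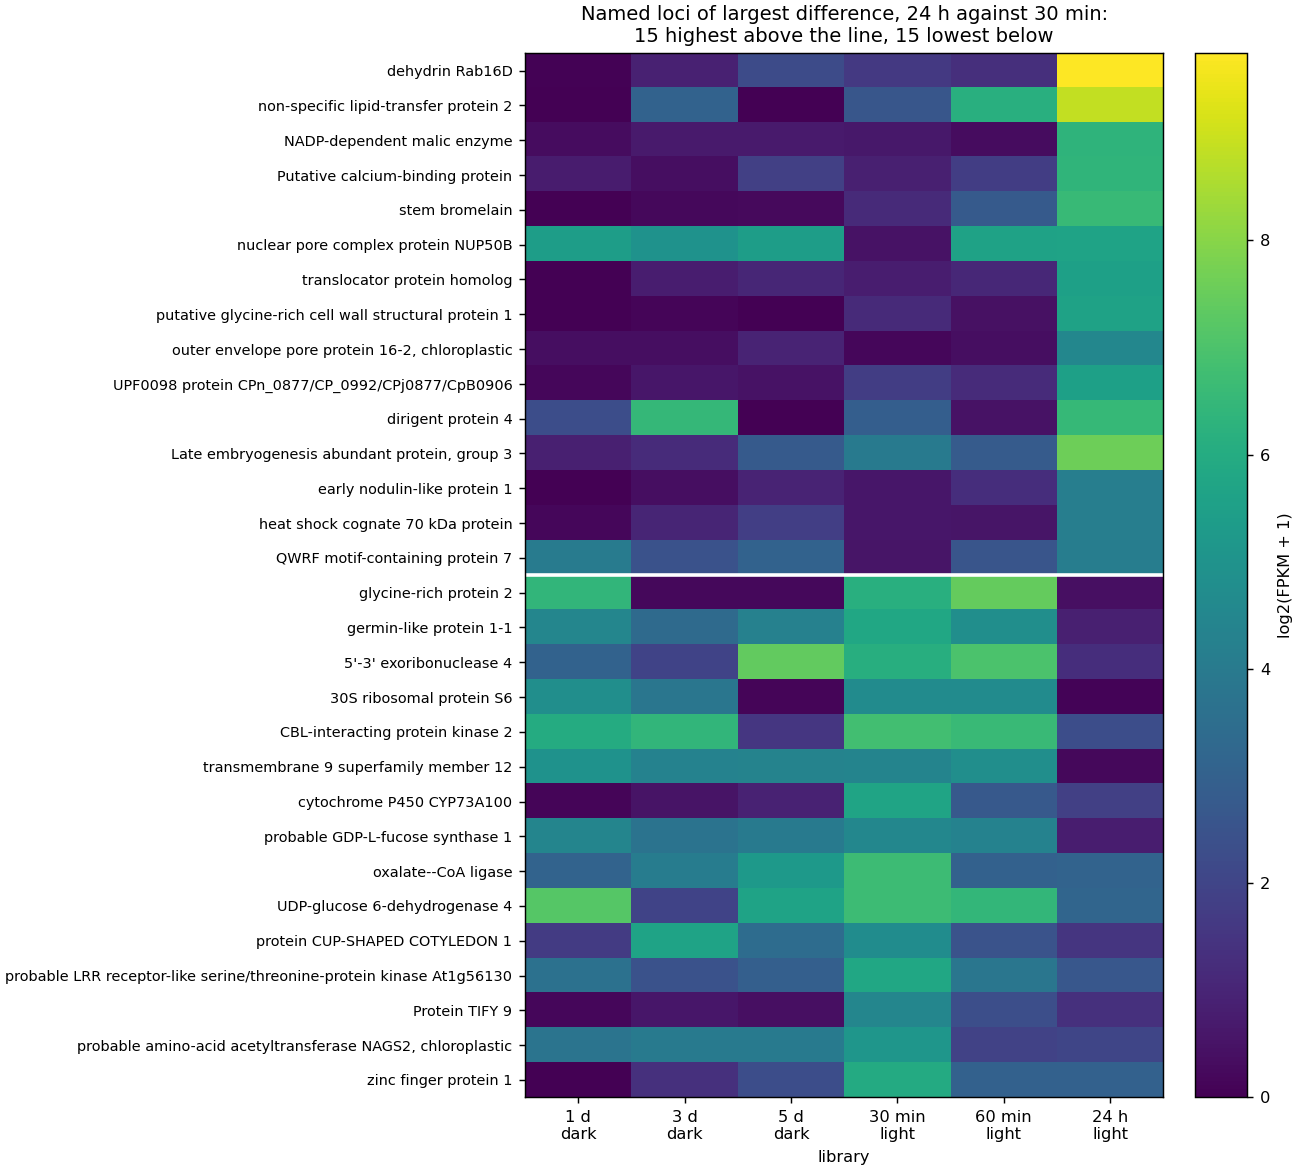
Levels of the 15 named loci with the highest differences (above the white line) and the 15 with the lowest (below it) in the 6 libraries, as log2(FPKM + 1), from dark blue (low) to yellow (high). Of the upper 15, 12 are at least 2-fold above all other libraries at 24 h, and 3 of the lower 15 are at least 2-fold below all others there. Both sets were picked by their difference, which favours such loci.

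The 15 named loci with the lowest differences, picked in the same way, had more mixed patterns. In 6 of them the 30 min library stood apart high, against 25.5% of all lower loci. Cytochrome P450 CYP73A100 (ZS02g0316000), of the cinnamate hydroxylase family, had 0.0956, 0.441 and 0.922 FPKM after 1, 3 and 5 days of darkness and 50.9, 5.68 and 2.55 FPKM after 30 min, 60 min and 24 h of light. It was high only after 30 min, and its difference was -3.87. Zinc finger protein 1 (ZS11g0268800) had 7.11 FPKM after 24 h and 61.5 FPKM after 30 min, with at most 7.09 FPKM elsewhere. Oxalate-CoA ligase (ZS04g0807300), an enzyme of oxalate breakdown, had 7.65 FPKM after 24 h and 102 FPKM after 30 min. An LRR receptor-like kinase (ZS05g0176900) had 5.26 and 54.3 FPKM, and the arginine synthesis enzyme NAGS2 (ZS07g0484400) had 3.06 and 33.9 FPKM. The sixth was TIFY 9.

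In 3 others the 24 h library alone was low. Transmembrane 9 superfamily member 12 (ZS02g0608900) had 0.170 FPKM after 24 h and 20.3 FPKM after 30 min, and 19.1 to 30.5 FPKM elsewhere. GDP-L-fucose synthase 1 (ZS06g0575300), which supplies fucose for wall polymers, had 0.727 and 21.7 FPKM, and 12.1 to 20.8 FPKM elsewhere. Germin-like protein 1-1 (ZS01g0193500) had 0.819 FPKM after 24 h and 54.3 FPKM after 30 min.

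The other 6 differed between libraries of darkness too. Glycine-rich protein 2 (ZS08g0032800, a gene name that 2 loci share) had 84.0, 0.142 and 0.150 FPKM after 1, 3 and 5 days of darkness and 69.7, 172 and 0.302 FPKM after 30 min, 60 min and 24 h of light. Its difference of -5.76 was the lowest of the named loci, but near-absent values also occurred in darkness. The exoribonuclease XRN4 (ZS03g0738000), which degrades messenger RNA, had 1.40 FPKM after 24 h and 67.8 FPKM after 30 min, and 2.85 to 167 FPKM elsewhere. 30S ribosomal protein S6 (ZS01g0120600) had 0.0760 and 24.9994 FPKM, and 0.0899 FPKM after 5 days of darkness. CBL-interacting protein kinase 2 (ZS07g0577200) had 3.90 FPKM after 24 h and 111 FPKM after 30 min, and UDP-glucose 6-dehydrogenase 4 (ZS12g0272300), which makes the glucuronate of wall polymers, had 7.99 and 103 FPKM. The organ boundary factor CUP-SHAPED COTYLEDON 1 (ZS04g0629600) had 1.86 and 25.9 FPKM, and 48.8 FPKM after 3 days of darkness.

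Of 48 measured wax and cuticle loci, 8 were higher after 24 h and 7 were lower, with a median of -0.04. Besides the lipid-transfer protein above, ZS04g0499000, a further one, had 72.8 FPKM after 24 h and 5.53 FPKM after 30 min. The putative lipid-transfer protein DIR1 (ZS01g0758300), known in Arabidopsis for systemic resistance, was listed at 0 after 24 h and had 25.3 FPKM after 30 min. Lipid-transfer protein 1 (ZS12g0022700) had 2.59 FPKM after 24 h and 13.2 FPKM after 30 min. By the deposited term lipid transport, 13 of 52 loci were higher and 7 were lower. After 24 h 7 of the 52 stood apart high, against 2.50% of all loci.

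The list of abscisic acid and PP2C names did not follow the dehydrins as a group. Whether each phosphatase in it acts in abscisic acid signalling was not tested. Of 45 measured loci of this list, which holds receptors, PP2C phosphatases and response factors, 3 were higher after 24 h and 6 were lower. These were 6.67% and 13.3%, against 7.50% and 9.20% of all loci. Phosphatases 2C 59 (ZS06g0632600) and 2C 51 (ZS05g0589700) had 23.4 and 5.16 FPKM after 24 h, and 3.51 and 0.256 FPKM after 30 min. Both stood apart high in the 24 h library. Phosphatase 2C 54 (ZS06g0094900) had 3.04 FPKM after 24 h and 11.97 FPKM after 30 min, and a PYL8-like receptor (ZS05g0128200) had 3.08 and 10.6 FPKM. By the deposited term response to abscisic acid, 29 of 218 loci (13.3%) were higher and 20 (9.17%) were lower. The share of higher loci was thus above the 7.50% of all loci for this term, but not for the list. Of the 218 loci of the term, 14 stood apart high after 24 h, against 2.50% of all loci.

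Gibberellin enzymes, 6 measured, had 2 higher and 1 lower. Gibberellin 20 oxidase 1 (ZS03g0824300), of the family that makes the precursors of active gibberellin, had 0.532, 6.17 and 21.1 FPKM after 1, 3 and 5 days of darkness and 4.29, 2.31 and 22.7 FPKM after 30 min, 60 min and 24 h of light. It was low after 30 and 60 min and back near its 5-day dark level after 24 h. The inactivating enzyme gibberellin 2-beta-dioxygenase at ZS01g0620700 had 3.69 FPKM after 24 h and 14.6 FPKM after 30 min, against 0.690 FPKM after 5 days of darkness. The other 2-beta-dioxygenases had at most 2.46 FPKM in both libraries, namely 2.46 after 24 h and 1.96 after 30 min (ZS05g0578000), 2.19 and 2.06 (ZS05g0063700), 1.17 and 0.0541 (ZS04g0634900, the second higher locus), and 0.586 and 1.88 FPKM (ZS01g0112100).

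Auxin genes were near the background, with 5 of 53 measured loci higher and 6 lower. SAUR36-like (ZS09g0304900) had 2.18 FPKM after 24 h and 0.145 FPKM after 30 min, and the auxin synthesis enzyme YUCCA10 (ZS01g0183100) had 10.5 and 3.26 FPKM. The auxin response repressor IAA1 (ZS01g0078600) had 6.85 FPKM after 24 h and 21.1 FPKM after 30 min, and SAUR71 (ZS02g0073000) was listed at 0 after 24 h and had 1.58 FPKM after 30 min.

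Cytokinin genes had 1 of 16 measured loci lower and none higher. Cytokinin dehydrogenase 5 (ZS01g0636900), which breaks the hormone down, had 1.80 FPKM after 24 h and 10.5 FPKM after 30 min, and ORR22 (ZS02g0248600), a response regulator, had 0.582 and 1.98 FPKM. LOGL6 (ZS04g0632000), of the activating enzymes, had 3.33 FPKM after 24 h and 1.19 FPKM after 30 min, and cytokinin hydroxylase (ZS09g0267700) had 2.14 and 0.940 FPKM.

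None of 27 measured cell cycle loci reached 2-fold in either direction, with a median of 0.35. Cyclin-B2-2 (ZS06g0665400), a mitotic cyclin, had 35.4 FPKM after 24 h and 18.8 FPKM after 30 min, and cyclin-D3-2 (ZS09g0023900) had 5.35 and 3.21 FPKM. The lowest were CDKA-2 (ZS02g0029900), with 11.6 FPKM after 24 h and 20.2 FPKM after 30 min, and the inhibitor CDKI1 (ZS02g0644500), with 20.3 and 29.7 FPKM. Cytosolic ribosomal proteins had 4 of 94 loci higher and none lower, with a median of 0.34, so most lay slightly above their 30 min level. Of these, L27-3 (ZS02g0207700, a gene name that 2 loci share) was listed at 0 after 30 min and had 228 FPKM after 24 h. It was also listed at 0 after 1 and 3 days of darkness. L21-2 (ZS03g0045800) had 219 and 45.2 FPKM after 24 h and 30 min. The lowest members were an L18a-like locus (ZS01g0536000), which had 2.51 and 4.37 FPKM, and S3-2 (ZS03g0481300), which had 190 and 279 FPKM.

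All 6 cellulose synthase subunits lay within 2-fold. CESA9 (ZS09g0283800) and CESA4 (ZS01g0613900), of secondary walls, had 12.2 and 23.7 FPKM after 24 h, and 12.2 and 24.5 FPKM after 30 min. CESA1 (ZS05g0090500) and CESA6 (ZS07g0191200), of primary walls, had 100.5 and 79.0 FPKM after 24 h, and 122 and 92.8 FPKM after 30 min. CESA5 (ZS03g0799300) and CESA2 (ZS03g0749500) had 33.9 and 9.45 FPKM after 24 h, and 34.6 and 11.0 FPKM after 30 min.

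Wall-loosening expansins had 4 of 25 measured loci higher and 1 lower after 24 h. Expansin-A10 (ZS04g0699800) was listed at 0 after 30 min and had 46.5 FPKM after 24 h, against 24.4 to 97.6 FPKM elsewhere. As with TIFY 11b, this 0 can be a failed estimate, and the locus is 1 of the 4 higher ones. Expansin-A33 (ZS05g0215700) had 7.83 FPKM after 24 h and 1.46 FPKM after 30 min. Expansin-A7 (ZS03g0768400) had 2.12 and 12.2 FPKM, and expansin-like A1 (ZS03g0038200) had 18.4 and 37.3 FPKM. Xyloglucan endotransglucosylases remodel the hemicellulose between cellulose fibrils, and 3 of 10 were higher and 1 was lower. Proteins 24 (ZS04g0734900) and 31 (ZS10g0439300) had 10.6 and 3.47 FPKM after 24 h, and 1.23 and 0.728 FPKM after 30 min. A further protein 24 locus (ZS04g0735100) had 4.21 FPKM after 24 h and 14.5 FPKM after 30 min, and protein 22 (ZS06g0631400) had 12.5 and 16.9 FPKM.

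Phenylpropanoid and lignin genes, 41 measured, split into 8 higher loci (19.5%, against 7.50% of all loci) and 7 lower ones (17.1%, against 9.20%). Besides CYP73A100, a 4-coumarate-CoA ligase-like locus (ZS03g0038000) was lower, with 8.67 FPKM after 24 h and 32.5 FPKM after 30 min. Caffeoylshikimate esterase (ZS01g0236600), a lignin enzyme, was listed at 0 after 30 min and had 4.82 FPKM after 24 h. Putative cinnamyl alcohol dehydrogenase 4 (ZS11g0550900) had 14.3 FPKM after 24 h and 1.93 FPKM after 30 min. A phenylalanine ammonia-lyase locus (ZS05g0436300), the entry enzyme of the pathway, had 22.9 and 64.5 FPKM.

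Flavonoid synthesis had 4 of 22 measured loci higher and 6 lower. The probable chalcone-flavonone isomerase 3 (ZS12g0023300), of the family that closes the flavonoid ring, had 13.6 FPKM after 24 h and 3.00 FPKM after 30 min. Anthocyanidin 3-O-glucosyltransferase 2 (ZS07g0416300) was listed at 0 after 30 min and had 2.09 FPKM after 24 h, and a second glucosyltransferase (ZS11g0396900) was listed at 0 after 24 h and had 8.24 FPKM after 30 min. A flavonol synthase locus (ZS03g0181300) had 2.94 FPKM after 24 h and 15.1 FPKM after 30 min, against at most 0.105 FPKM in the dark libraries.

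Chitinases and pathogenesis-related proteins had 7 of 43 measured loci higher (16.3%, against 7.50% of all loci) and 2 lower (4.65%, against 9.20%). With a pseudocount of 5 the counts were 2 higher and 1 lower, and with a minimum of 5 FPKM the list's median was -0.06, against 0.26 at 1 FPKM. Pathogenesis-related protein 1 (ZS03g0189300) had 46.3 FPKM after 24 h and 7.93 FPKM after 30 min, and 3.65 to 6.78 FPKM elsewhere. A further locus of this name (ZS07g0022600) was listed at 0 after 30 min and had 4.001 FPKM after 24 h. The glucanase ZS07g0445100, which cuts callose-type glucans, had 19.9 and 46.6 FPKM after 24 h and 30 min, and an endochitinase 2-like locus (ZS01g0713500) had 5.28 and 12.1 FPKM. Class III peroxidases, wall enzymes that oxidise phenolics, had 4 of 35 higher and 2 lower. Peroxidase 47 (ZS08g0019500) had 32.5 FPKM after 24 h and 3.46 FPKM after 30 min, and peroxidase 24 (ZS01g0180200) had 33.9 and 8.56 FPKM. Peroxidases 4 (ZS11g0020500) and 12 (ZS04g0811200) had 1.98 and 8.44 FPKM after 24 h, and 5.71 and 19.6 FPKM after 30 min.

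NAC factors had 4 of 28 measured loci higher (14.3%, against 7.50% of all loci) and 2 lower (7.14%, against 9.20%). The locus named NAC 76-like (ZS02g0170700) had 3.11 FPKM after 24 h and 0.476 FPKM after 30 min, and NAC 67-like (ZS03g0039000) had 9.20 and 2.72 FPKM. The lowest were NAC 67 (ZS07g0152100), with 14.1 and 36.5 FPKM, and NAC 29 (ZS07g0580000), with 3.84 and 10.8 FPKM. MYB factors had 5 of 44 higher (11.4%) and 4 lower (9.09%). One MYB44 locus (ZS06g0563500) was listed at 0 after 30 and after 60 min and had 24.2 FPKM after 24 h. Another (ZS02g0100900) was listed at 0 after 24 h and had 4.04 FPKM after 30 min. Hv33 (ZS01g0563700) had 6.24 and 2.07 FPKM after 24 h and 30 min, and a further myb-related locus (ZS07g0584500) had 1.54 and 5.19 FPKM.

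Transport genes held some loci high after 24 h. Of 17 measured aquaporins, the water channels of membranes, 4 were higher (23.5%, against 7.50% of all loci) and 2 lower (11.8%, against 9.20%). TIP2-1 (ZS02g0542000), of the vacuole membrane, had 10.4, 41.9 and 12.7 FPKM after 1, 3 and 5 days of darkness and 34.5, 17.8 and 170 FPKM after 30 min, 60 min and 24 h of light. It was highest after 24 h. TIP4-3 (ZS01g0131300) had 5.84 FPKM after 24 h and 0.749 FPKM after 30 min. NIP2-2 (ZS06g0150100) had 9.40 and 24.4 FPKM, and SIP1-1 (ZS01g0081600) had 17.3 and 37.2 FPKM.

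Nutrient transporters had 6 of 47 measured loci higher (12.8%, against 7.50% of all loci) and 4 lower (8.51%, against 9.20%). Of these 6, 5 stood apart high after 24 h, against 33.3% of all higher loci. Phosphate transporter 1-8 (ZS10g0345000) was listed at 0 after 30 min and had 24.5 FPKM after 24 h. The locus named NRT1/PTR family 7.3 (ZS02g0604200) had 7.55 FPKM after 24 h and 0.0115 FPKM after 30 min. The NRT1/PTR 6.3 locus (ZS10g0447200), a nitrate transporter family member, had 14.0 FPKM after 24 h and 54.0 FPKM after 30 min, and sulfate transporter 3.5 (ZS01g0579600) had 5.09 and 19.0 FPKM.

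Calcium sensors and their kinases had 3 of 40 loci higher and 5 lower. The higher loci were the calcineurin B-like proteins 8 (ZS02g0214200), 5 (ZS01g0461000) and 4 (ZS05g0556700), which bind calcium and recruit kinases, with 10.4, 7.88 and 4.76 FPKM after 24 h. After 30 min they had 0.948, 2.56 and 1.85 FPKM. All 3 stood apart high in the 24 h library. The lowest were CBL-interacting kinases 2, given above, and 31 (ZS03g0212800), with 9.60 FPKM after 24 h and 37.0 FPKM after 30 min.

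Core histones had 1 of 16 measured loci higher, H2A.3 (ZS08g0485000), with 55.5 FPKM after 24 h and 16.9 FPKM after 30 min, and none lower. H2A.5 (ZS01g0355800) had 60.5 and 32.6 FPKM, H2A variant 1 (ZS03g0063000) had 16.8 and 29.4 FPKM, and H2B.2 (ZS01g0055000) had 9.59 and 18.3 FPKM. Tubulins, the subunits of microtubules, had 1 of 9 lower, beta-1 (ZS01g0192600), with 52.0 FPKM after 24 h and 137 FPKM after 30 min. Beta-7 (ZS03g0724800) had 55.4 and 87.5 FPKM, beta-2 (ZS03g0014100) had 6.88 and 3.28 FPKM and beta-8 (ZS03g0587600) had 28.8 and 20.5 FPKM.

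Arabinogalactan, glycine-rich and proline-rich wall proteins had 4 of 24 measured loci higher and 7 lower. Besides the glycine-rich protein given above, the glycine-rich protein 2-like locus (ZS01g0759800) had 34.9 FPKM after 24 h and 5.75 FPKM after 30 min. Fasciclin-like arabinogalactan protein 13 (ZS05g0580300), an adhesion-type wall protein, and the proline-rich protein DC2.15 (ZS02g0545200) were listed at 0 after 24 h and had 6.69 and 196 FPKM after 30 min. Pectin enzymes had 1 of 19 higher and 2 lower. The merged polygalacturonase locus (ZS01g0504200 and ZS01g0505600) had 4.55 and 1.75 FPKM after 24 h and 30 min, and a pectinesterase (ZS01g0232200) had 1.50 and 0.403 FPKM. Pectinesterase 41 (ZS01g0231600) had 3.10 and 13.6 FPKM, and pectate lyase 21 (ZS01g0410200) was listed at 0 after 24 h and had 7.77 FPKM after 30 min.

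Dirigent proteins had 2 of 5 measured loci higher. Besides protein 4, protein 15 (ZS03g0750300) had 1.67 FPKM after 24 h and 0.335 FPKM after 30 min. The 3 protein 5 loci had 7.17 and 7.57 FPKM (ZS07g0541700), 4.53 and 6.29 FPKM (ZS07g0542900), and 1.74 and 2.74 FPKM (ZS07g0543600), all within 2-fold.

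Glutathione S-transferases, which conjugate toxic compounds, had 3 of 22 measured loci higher and 3 lower. This was 13.6% each way, against 7.50% and 9.20% of all loci. GST 23 (ZS09g0333600) was listed at 0 after 30 min and had 9.50 FPKM after 24 h, and the APIC locus (ZS10g0437900) had 9.62 and 3.13 FPKM. The GSTU6 loci ZS10g0427600 and ZS10g0428200 had 9.01 and 1.81 FPKM after 24 h, and 34.2 and 5.66 FPKM after 30 min. Antioxidant enzymes had 2 of 21 higher and 1 lower. Peroxiredoxin 1-Cys A (ZS07g0543400), known from seeds, had 6.39 FPKM after 24 h and 2.33 FPKM after 30 min. A catalase-1 locus (ZS03g0037400) had 1.40 and 0.168 FPKM. A further, more abundant catalase-1 locus under the same gene name had 14.3 FPKM after 24 h and 11.9 FPKM after 30 min, within 2-fold. Catalase isozyme A (ZS02g0023400), the abundant one, had 201 and 331 FPKM, and monodehydroascorbate reductase 4 (ZS02g0595900) had 5.39 and 16.5 FPKM.

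Protease inhibitors had 1 of 14 measured loci higher and 3 lower. The locus ZS01g0485800 had 37.4 FPKM after 24 h and 3.10 FPKM after 30 min, and a Bowman-Birk inhibitor (ZS01g0031900) had 104 and 57.2 FPKM. The wound-induced inhibitor WIP1 (ZS01g0037400) had 89.7 FPKM after 24 h and 258 FPKM after 30 min, and a bran inhibitor-like locus (ZS01g0031500) was listed at 0 after 24 h and had 8.15 FPKM after 30 min. Heat shock proteins had 2 of 34 higher and 4 lower. Besides the chaperone named above, heat stress factor C-1b (ZS01g0599300) had 7.60 and 2.02 FPKM after 24 h and 30 min. The cognate chaperone ZS03g0170300 had 41.2 and 136 FPKM, and a class I small heat shock protein (ZS01g0041300) was listed at 0 after 24 h and had 1.74 FPKM after 30 min.

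Proteasome subunits had 1 of 21 measured loci higher and 1 lower. Alpha type-7-B (ZS09g0396000) had 28.0 FPKM after 24 h and 7.89 FPKM after 30 min, and beta type-6 (ZS02g0658000) had 42.3 and 23.4 FPKM. Regulatory subunits 11 (ZS04g0534100) and 14 (ZS01g0177800) had 0.0214 and 63.6 FPKM after 24 h, and 3.52 and 118 FPKM after 30 min. Sugar and starch enzymes had 3 of 31 lower and none higher. Alpha-amylase 2A (ZS06g0647300), which breaks down starch, had 1.44 FPKM after 24 h and 6.08 FPKM after 30 min, and cytosolic invertase 1 (ZS02g0421900), which splits sucrose, had 24.4 and 50.8 FPKM. The highest differences were those of a wall invertase (ZS02g0391700), with 26.1 and 15.7 FPKM, and of sucrose-phosphate synthase 1 (ZS01g0762700), with 1.18 and 0.521 FPKM. Of the carbon fixation list 1 locus was measured, a rubisco small subunit (ZS02g0059700), with 0.813 FPKM after 24 h and 1.07 FPKM after 30 min. By the deposited carbon fixation pathway, 13 of 116 measured loci (11.2%) were higher and 12 (10.3%) were lower. The product names caught only 2 GLK loci and 1 brassinosteroid locus, and none of them reached 1 FPKM in either library.

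**Figure D5:**
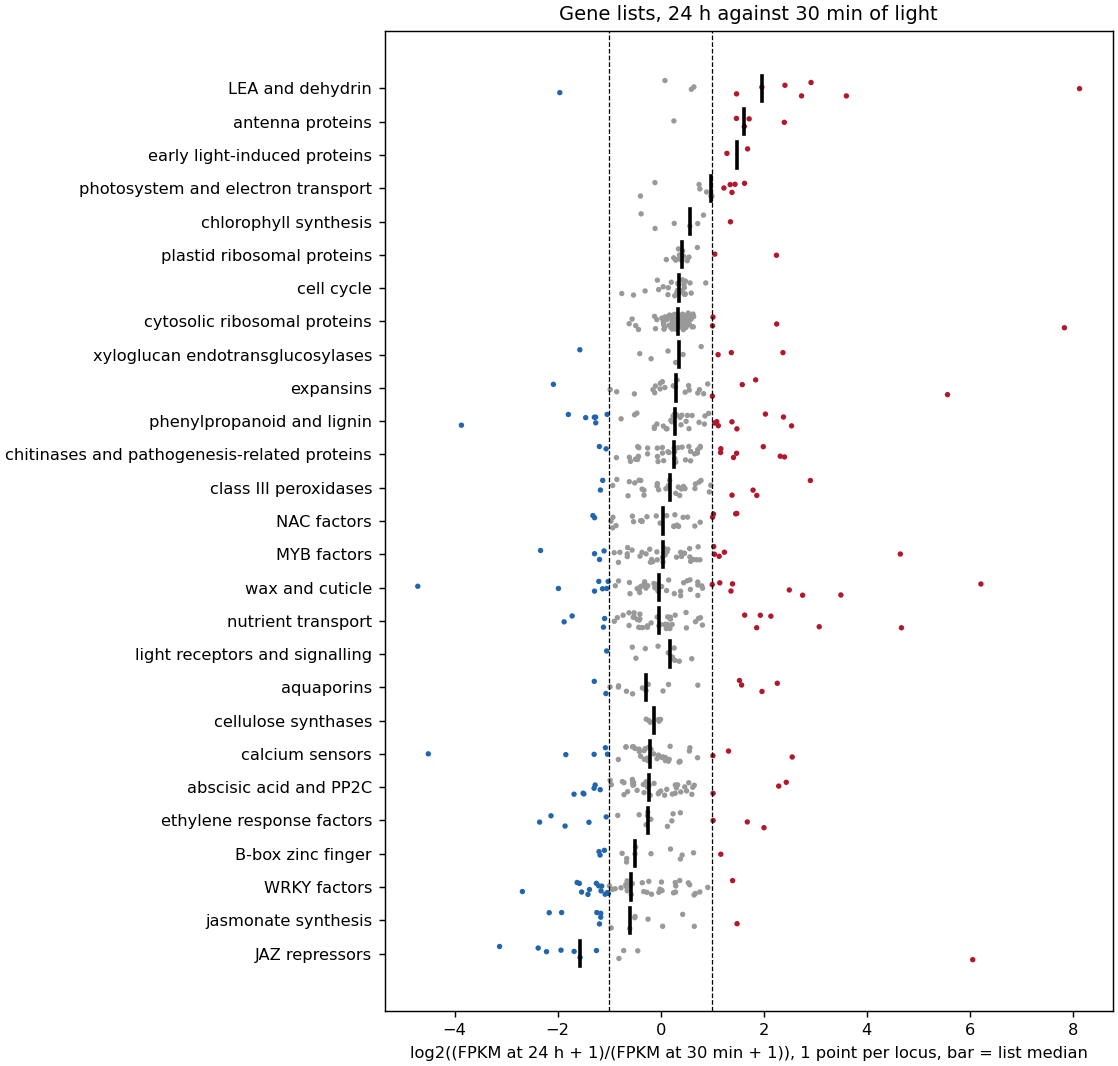
Differences of the measured loci of 27 gene lists, 24 h against 30 min of light, 1 point per locus (log2 scale, horizontal axis), with a black bar at the list's median and dashed lines at 2-fold. Red points are at least 2-fold higher after 24 h, blue points at least 2-fold lower. The medians run between 1.97 for LEA and dehydrin loci and -1.56 for JAZ repressors, and those of most lists lie close to 0.

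The most abundant loci included metallothioneins, small metal-binding proteins. Metallothionein-like protein 4C (ZS12g0448700) had 901 FPKM after 24 h and 2910 FPKM after 30 min, and protein 3B (ZS05g0121200) had 692 and 1222 FPKM. Protein 4A (ZS12g0448300) had 583 FPKM after 24 h and 760 FPKM after 30 min, and ZS05g0018000 had 1006 and 439 FPKM. S-adenosylmethionine synthase 1 (ZS05g0045100, a gene name that 3 loci share) had 1823 and 2266 FPKM. This enzyme makes the methyl donor of the cell and the substrate of ACC synthase. The locus ZS07g0251700, a gene name that 2 loci share, has no product name. It was the most abundant after 24 h, with 10022 FPKM (2.85% of the library's sum), and had 1743 FPKM after 30 min. It was higher still after 3 days of darkness, with 50093 FPKM.

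Other loci of the highest levels carry no informative product name. ZS01g0509200 had 1680 FPKM after 24 h and 5219 FPKM after 30 min. ZS06g0622000 had 1453 and 1570 FPKM, and ZS11g0591500 had 1407 and 2317 FPKM. ZS07g0251600 was the most abundant locus after 30 min, with 7428 FPKM, and was listed at 0 after 24 h. It also had 5418 FPKM after 1 day of darkness and was listed at 0 in the remaining 3 libraries.

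Zeros were frequent on both sides. After 24 h, 50 loci were listed at 0 that had at least 10 FPKM after 30 min, and 44 loci had the reverse. Of loci with at least 1 FPKM in each other library, 61 were listed at 0 after 24 h and 45 after 30 min. Such a 0 can be a failed estimate. Besides L27-3 and TIFY 11b, the highest named loci listed at 0 after 30 min were a flowering-promoting factor 1-like protein (ZS01g0780800), with 50.7 FPKM after 24 h, and 2 loci without an informative product name, MSTRG.24372 with 135 FPKM and ZS02g0357300 with 61.6 FPKM. At 0 after 24 h stood the proline-rich protein DC2.15 (ZS02g0545200), with 196 FPKM after 30 min and 0 after 60 min. A further 3 such loci without an informative product name, ZS04g0809100, ZS09g0280900 (a gene name that 2 loci share) and ZS04g0492500, had 90.1, 67.0 and 56.5 FPKM after 30 min. No fold is given for these loci.

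Markers of other tissues that a mesocotyl sample could hold were examined beside these results. No list of genes that define the mesocotyl itself was used, so the tissue label was checked only against its neighbours. Of 8 measured loci of the shoot meristem and leaf primordium 3 were lower after 24 h and none higher, and the sum over all 12 loci of the list was 68.0 FPKM after 24 h and 127 FPKM after 30 min. They were CUP-SHAPED COTYLEDON 1 (ZS04g0629600), knotted-1-like 1 (ZS01g0217500), with 11.9 and 28.7 FPKM, and YABBY 6 (ZS12g0500700), with 1.88 and 5.51 FPKM. Members within 2-fold were knotted-1-like 13 (ZS08g0255500), with 7.06 and 7.30 FPKM, knotted-1-like 2 (ZS02g0096700), with 29.8 and 38.1 FPKM, knotted-1-like 3 (ZS03g0030200), with 7.96 and 10.9 FPKM, knotted-1-like 6 (ZS03g0658000), with 2.86 and 4.61 FPKM, and a second CUP-SHAPED COTYLEDON 1 locus (ZS02g0702000), with 4.42 and 5.35 FPKM.

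Of 9 root loci 5 were measured, all named cortical cell-delineating protein, with 1 higher and 2 lower. The list summed to 216 FPKM after 24 h and 238 FPKM after 30 min. ZS10g0444600 had 13.6 FPKM after 24 h and was listed at 0 after 30 min, and ZS03g0012400 had 153 and 121 FPKM. ZS10g0446300 had 31.1 and 52.7 FPKM, ZS03g0650800 had 17.6 and 57.4 FPKM, and ZS10g0445200 had 0.603 and 7.52 FPKM.

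The 10 epidermis and guard cell loci summed to 18.6 FPKM after 24 h and 21.6 FPKM after 30 min, against 144 FPKM after 60 min, and none of the 4 measured reached 2-fold. The factor ROC6 (ZS09g0385800) had 2.68 and 1.78 FPKM after 24 h and 30 min, ROC6-like (ZS08g0254700) had 13.3 and 16.9 FPKM, ROC1 (ZS08g0104300) had 0.472 and 1.60 FPKM, and EPF-like 2 (ZS07g0026600) had 1.03 and 0.600 FPKM. None of 5 vascular loci reached 2-fold, and their sums were 93.4 and 107 FPKM. Besides CESA4 and CESA9, this list held 3 xylem cysteine proteinase 2 loci, with 24.2, 4.48 and 28.9 FPKM after 24 h and 22.4, 4.46 and 43.4 FPKM after 30 min (ZS01g0810900, ZS02g0602800 and ZS05g0015600). Of 19 seed storage loci 3 were measured, 2 of them lower, with sums over the list of 10.9 and 31.0 FPKM. An 11S globulin (ZS01g0815700) had 0.521 FPKM after 24 h and 3.69 FPKM after 30 min, and basic 7S globulins had 6.23 and 22.2 FPKM (ZS05g0409500) and 2.86 and 2.24 FPKM (ZS01g0784600). Members of these lists that are not named were under 1 FPKM in both libraries. The part of other tissues in the differences above was not tested.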

How the data were processed

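Per the file headers, the deposited table holds 1 FPKM value for each locus in each library. Per the labels' protocols, poly(A) RNA was captured and sequenced in paired ends, with a kit that marks no strand, so overlapping antisense loci cannot be told apart. Which aligner and counter the authors ran is not given in the sources used here. Bowtie 0.12.2 and mm8, a mouse build, stand in the submitters' processing notes without a role. FPKM holds no counts, and steps among low values gave no settled depth (most common step 0.536 in 2.83% of 1167 low loci), so depth is unknown and no count test was run. Exact 0 values were kept as listed and given no fold.

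Differences were log2((FPKM + 1)/(FPKM + 1)) for loci with at least 1 FPKM in either library, and 2-fold was a size rule. Gene lists (48 by product name, 5 of tissue markers) and deposited terms were chosen with earlier results of these data known. From 23 lists, 140 product names of other families were removed once the table had been opened. Named loci were, among those with an informative product name, 1 gene name and values above 0, the 15 highest and 15 lowest; in each list described the 2 highest and 2 lowest, or all of up to 8; up to 5 per side listed at 0; and the 5 most abundant. Other named loci were chosen after their values were seen. No gene name matched the reference gene table (0 matches), so product names are those deposited, and close paralogs, the 730 merged loci and the 4201 loci sharing a gene name are uncertain. Alternatives were other pseudocounts, filters and scalings, leaving out loci at 0, merged loci or loci low in 1 library, and the 60 min library in place of 30 min. Python 3.11.15, pandas 2.3.3, NumPy 2.4.6 and matplotlib 3.10.9 were used.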

Additional observations from a re-analysis of the deposited data

How the results depend on the processing

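With 1 library per condition, no alternative gives a replicate error, and low FPKM values limit all counts. A pseudocount of 0.1 gave 2281 higher and 2621 lower loci, and one of 5 gave 431 and 540. With a minimum of 5 FPKM there were 747 and 929. With the 60 min library in place of 30 min there were 2533 and 3598, with a median of -0.11. The median difference over loci was -0.0038 with no filter, -0.0005 with equal FPKM sums, -0.0029 with the median ratio of loci and 0.0033 with equal sums without ZS07g0251600 and ZS07g0251700, an alternative chosen after seeing the data. Leaving out loci at 0 gave 1043 and 1236. Leaving out loci low in 1 of the 2 libraries, also chosen afterwards, gave 1387 and 1684. Higher antenna loci numbered 0 to 4, higher photosystem loci 0 to 9, higher LEA and dehydrin loci 5 to 7, lower JAZ loci 7 to 8 and lower WRKY loci 5 to 19 over the alternatives that keep this pair. With 60 min in place of 30 min, only 2 JAZ loci were lower, with a median of -0.50, and 4 jasmonate synthesis loci were lower. LEA and dehydrin loci then had 8 higher members and a median of 1.88. The ethylene synthesis median turned to 0.026 with no filter. Set against 60 min, the antenna median was -4.85, that of early light-induced proteins -1.73, those of photosystem, chlorophyll synthesis, plastid ribosomal and WRKY loci -3.21, -3.24, -3.12 and 0.47, and the differences of ZS04g0807300, ZS07g0484400, ZS11g0268800 and ZS12g0448700 were 0.074, 0.10, 0.004 and 0.50; the cause was not tested. The 30 named loci of largest difference kept their sign and 2-fold under the other alternatives, with 25 left where loci low in 1 library were removed. No paired analysis was possible because each condition has 1 library.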

Other observations

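Loci without an informative product name held the highest difference of all. ZS08g0011000 had 434 FPKM after 24 h and 0.260 FPKM after 30 min, a difference of 8.43, and at most 0.650 FPKM in the other 4 libraries. ZS11g0390400 had 1106 FPKM after 24 h and 7.83 FPKM after 30 min, a difference of 6.97, against 19.0 FPKM after 5 days of darkness. On the other side, a locus under ZS07g0580800, a gene name that 2 loci share, had 0.628 FPKM after 24 h and 91.4 FPKM after 30 min, with 0.603 FPKM after 60 min and 88.2 FPKM after 5 days of darkness. These 3 loci were chosen after their values were seen.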
